A study of Homo sapiens with 4 samples.

Results

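Expression of 6 genes for surface and secretory pathway proteins was followed across 19 sub-populations of lung adenocarcinoma cells. The genes were the membrane mucins MUC1, MUC4 and MUC16, the surface proteins CEACAM6 and PSCA, and the endoplasmic reticulum protein AGR2. They were taken by name, with earlier results of these data known, and all 6 were found among the 19973 genes of the table. A high level of the set in a sub-population is therefore not independent evidence. Single-cell RNA sequencing had been performed on 4 cultured lines, with 1 library per line and several passages of a line pooled before capture. R2 cells were recovered from the brains of mice that carried PC9-BrM4 metastases and received the EGFR inhibitor osimertinib, and C2 cells from such mice that received vehicle, each after 2 rounds of selection. PC9-BrM4 (labelled BM4) came from brain metastases of PC9 after repeated selection in mice, and PC9 is a human lung adenocarcinoma line with an EGFR exon 19 deletion. All 4 lines thus carry this deletion and were cultured for 3 days in serum without drug, so that osimertinib was absent at the time of measurement. The cells of all libraries were clustered together by the authors into sub-populations 0 to 18, and each value is a mean over the cells of 1 sub-population.

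In the text of the study, sub-population 8 was enriched in both C2 and R2, 1 and 5 were most prevalent in R2, and 0 and 4 in C2. As read from its plot, 6 and 7 belong to PC9-BrM4 and 2 and 3 to PC9. The text of the study does not assign these, so that their placement is less certain. Where a line is named beside a value, the value is that of the sub-populations placed in it. Such a value is not that of a pure line, because each sub-population can hold cells of several libraries. The study plots the share of each sub-population per line, but the expression values hold no numbers per line. Those shares were not used to adjust any value. The study found the sub-populations that dominate C2 or R2 at lower frequency in PC9 and PC9-BrM4 too. The smaller sub-populations 9 to 18 were not placed.

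Membrane mucins are long, heavily O-glycosylated proteins that span the apical membrane of epithelial cells and form part of the glycocalyx, the sugar-rich coat that separates a cell from its surroundings. MUC1 signals through its cytoplasmic tail, MUC4 can bind the receptor ERBB2, and MUC16 binds mesothelin. CEACAM6 is an immunoglobulin-type adhesion molecule, and PSCA belongs to the Ly6 family. Both are held at the surface by a glycolipid (GPI) anchor. AGR2 is a member of the protein disulfide isomerase family that resides in the endoplasmic reticulum and, in the mouse intestine, is needed to make the secreted mucin MUC2. All 6 are known to be expressed in carcinomas of the lung or of other glands.

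The 19 sub-populations held 24441 cells, between 111 cells in sub-population 18 and 3373 cells in sub-population 0, and 20660 of them were in sub-populations 0 to 8. Raw depth relative to the corrected values was between 0.969 and 1.03 in 0 to 8, but was 0.406 in 13, 0.455 in 14 and 0.531 in 16. Values are given as CPM, which are mean corrected unique molecular identifiers (UMIs, each marking 1 captured transcript) after every sub-population was rescaled to the same total, the usual one of CPM. The 95% intervals are exact Poisson intervals of the summed UMIs and cover counting error only. No line had a replicate library, and the clusters had been defined on these same values, so that the spread between cultures is unknown and no test was applied. Of the marker lists, 13 of 15 epithelial genes were in the table, and their summed level was between 5673 and 27694 CPM in the 19 sub-populations, with KRT18 and other simple keratins leading. NAPSA and SFTPC, markers of alveolar differentiation, averaged 0.368 and 0.0272 CPM. NKX2-1 and SFTPB were searched too but were not among the genes with corrected values. Markers of fibroblasts, of endothelium and of red cells summed to at most 7.29, 6.79 and 0.331 CPM. Leukocyte markers reached 76.5 CPM and neural markers 81.3 CPM, almost all of it from CD68, a lysosomal protein, and MBP.

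On the reference annotation (GENCODE 44, GRCh38), MUC1 lies on chromosome 1 (155185824 to 155192916), MUC4 on chromosome 3 (195746765 to 195811973), MUC16 on chromosome 19 (8848844 to 9010390), AGR2 on chromosome 7 (16791811 to 16833433), all on the minus strand. CEACAM6 lies on the plus strand of chromosome 19 (41750977 to 41772211). The canonical transcripts measure 1811 bases for MUC1, 16756 for MUC4, 43816 for MUC16, 1697 for AGR2, 2594 for CEACAM6 and 982 for PSCA. The 3′ chemistry reads the end of a transcript, and none of the 451 words of 50 bases in the last 500 bases of any of the 6 canonical transcripts occurred in a transcript of another gene, so near-identical relatives such as other CEACAM genes did not share these ends.

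The 4 sequences printed here belong to MUC16 and MUC4, the members whose levels were most alike, and to AGR2, whose levels followed another order, with CEACAM6, the member most like it. They are the 200 bases between 250 and 51 bases before the start given by RefSeq (GRCh38.p14), written 5′ to 3′ on the strand of the gene, and overlap no annotated exon. Capitals mark words of 4 motifs searched on both strands: TGANTCA (AP-1), GGAATG (TEAD), TGTTTAC (FOXA) and CCGGAA (ETS). The MUC4 window is chr3:195811980-195812179, the MUC16 window chr19:9010460-9010659, the AGR2 window chr7:16805050-16805249 and the CEACAM6 window chr19:41755280-41755479.
MUC16: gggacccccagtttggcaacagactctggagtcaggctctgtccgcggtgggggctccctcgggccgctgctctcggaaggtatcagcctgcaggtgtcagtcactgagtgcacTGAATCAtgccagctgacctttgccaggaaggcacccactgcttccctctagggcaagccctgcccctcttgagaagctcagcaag
MUC4: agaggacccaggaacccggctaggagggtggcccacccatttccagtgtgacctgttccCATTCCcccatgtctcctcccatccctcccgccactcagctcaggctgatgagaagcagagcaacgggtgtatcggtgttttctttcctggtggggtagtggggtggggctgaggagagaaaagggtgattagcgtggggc
CEACAM6: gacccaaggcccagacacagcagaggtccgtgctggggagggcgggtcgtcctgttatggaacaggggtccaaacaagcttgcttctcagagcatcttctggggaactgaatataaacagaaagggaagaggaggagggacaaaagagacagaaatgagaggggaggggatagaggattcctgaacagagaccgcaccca
AGR2: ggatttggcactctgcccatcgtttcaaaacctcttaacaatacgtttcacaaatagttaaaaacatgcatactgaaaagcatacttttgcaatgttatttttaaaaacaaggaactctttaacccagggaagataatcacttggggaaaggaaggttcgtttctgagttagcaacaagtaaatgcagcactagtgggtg
The MUC16 window held 1 AP-1 word, and 5.35% of the 27304 promoter windows of the same length in the reference held such a word. The MUC4 window held 1 TEAD word, read on the other strand (CATTCC), and that of MUC1 held 1 on the strand of the gene, beside 9.72% of all windows. No FOXA word (2.36% of all windows) or ETS word (10.1%) was found in these 5 windows, and the AGR2 and CEACAM6 windows held none of the 4 words. The AGR2 window had a GC content of 37.5% and the others shown had between 54.5% and 62.0%, beside a median of 57.0% over all windows. The RefSeq table holds 2 starts for MUC16, and the start nearest to that of the annotated gene was taken. For AGR2 and CEACAM6 the annotated gene begins 28434 and 4553 bases farther upstream, so that their windows lie inside the gene. These matches describe letters only.

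Among sub-populations 0 to 8, the membrane mucins were all highest in 8. MUC16 was at 38.4 CPM (95% interval 35.6 to 41.4) in sub-population 8. It was at 9.76 and 9.64 CPM in the R2 sub-populations 1 and 5 and at 16.6 and 18.5 CPM in the C2 sub-populations 0 and 4. It was at 2.78 and 2.03 CPM in the PC9-BrM4 sub-populations 6 and 7 and at 10.16 and 12.96 CPM in the PC9 sub-populations 2 and 3. PC9-BrM4 was therefore lowest, and the ratio of the highest to the lowest of the 19 values was 18.98. Among 0 to 8, 4 of 8 neighbours in the order of levels had overlapping intervals, so that the steps from 8 to 4, from 0 to 3, from 3 to 2 and from 5 to 6 were larger than counting error.

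MUC4 was at 28.0 CPM (25.6 to 30.6) in sub-population 8. It was at 9.25 and 12.02 CPM in 1 and 5 of R2, at 12.8 and 14.5 CPM in 0 and 4 of C2, at 4.63 and 3.89 CPM in 6 and 7 of PC9-BrM4, and at 6.91 and 8.31 CPM in 2 and 3 of PC9. Its order was like that of MUC16 except that R2 stood above PC9. MUC1 was at 14.3 CPM (12.6 to 16.2) in 8, at 6.61 and 8.003 CPM in R2, at 4.65 and 7.55 CPM in C2, at 4.73 and 3.89 CPM in PC9-BrM4 and at 5.60 and 9.26 CPM in PC9. MUC1 thus stood out in 8, and 7 of its 8 neighbours in the order had overlapping intervals.

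PSCA was at 80.3 CPM (76.2 to 84.6) in sub-population 8. It was at 40.5 and 35.2 CPM in R2, at 31.0 and 37.1 CPM in C2, at 25.6 and 20.03 CPM in PC9-BrM4, and at 53.0 and 60.9 CPM in PC9. PC9 came next after 8 in this order, and PC9-BrM4 was again lowest. CEACAM6 was at 12.3 CPM (10.8 to 14.1) in 8, at 1.82 and 1.93 CPM in R2, at 2.58 and 4.21 CPM in C2, at 5.17 and 3.94 CPM in PC9-BrM4, and at 9.68 and 13.98 CPM in PC9. The intervals of 8 and 3 overlapped, 2 lay below both, and the lowest values were those of R2.

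AGR2 had another order. It was at 8.19 CPM (6.90 to 9.64) in sub-population 8, at 2.76 and 2.19 CPM in R2 and at 2.45 and 3.68 CPM in C2. It was at 11.7 and 7.61 CPM in PC9-BrM4 and at 25.3 and 28.9 CPM in PC9. Both PC9 sub-populations stood above all others among 0 to 8, and C2 and R2 were at the bottom, with a ratio of the highest to the lowest of 13.2.

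**Figure D1:**
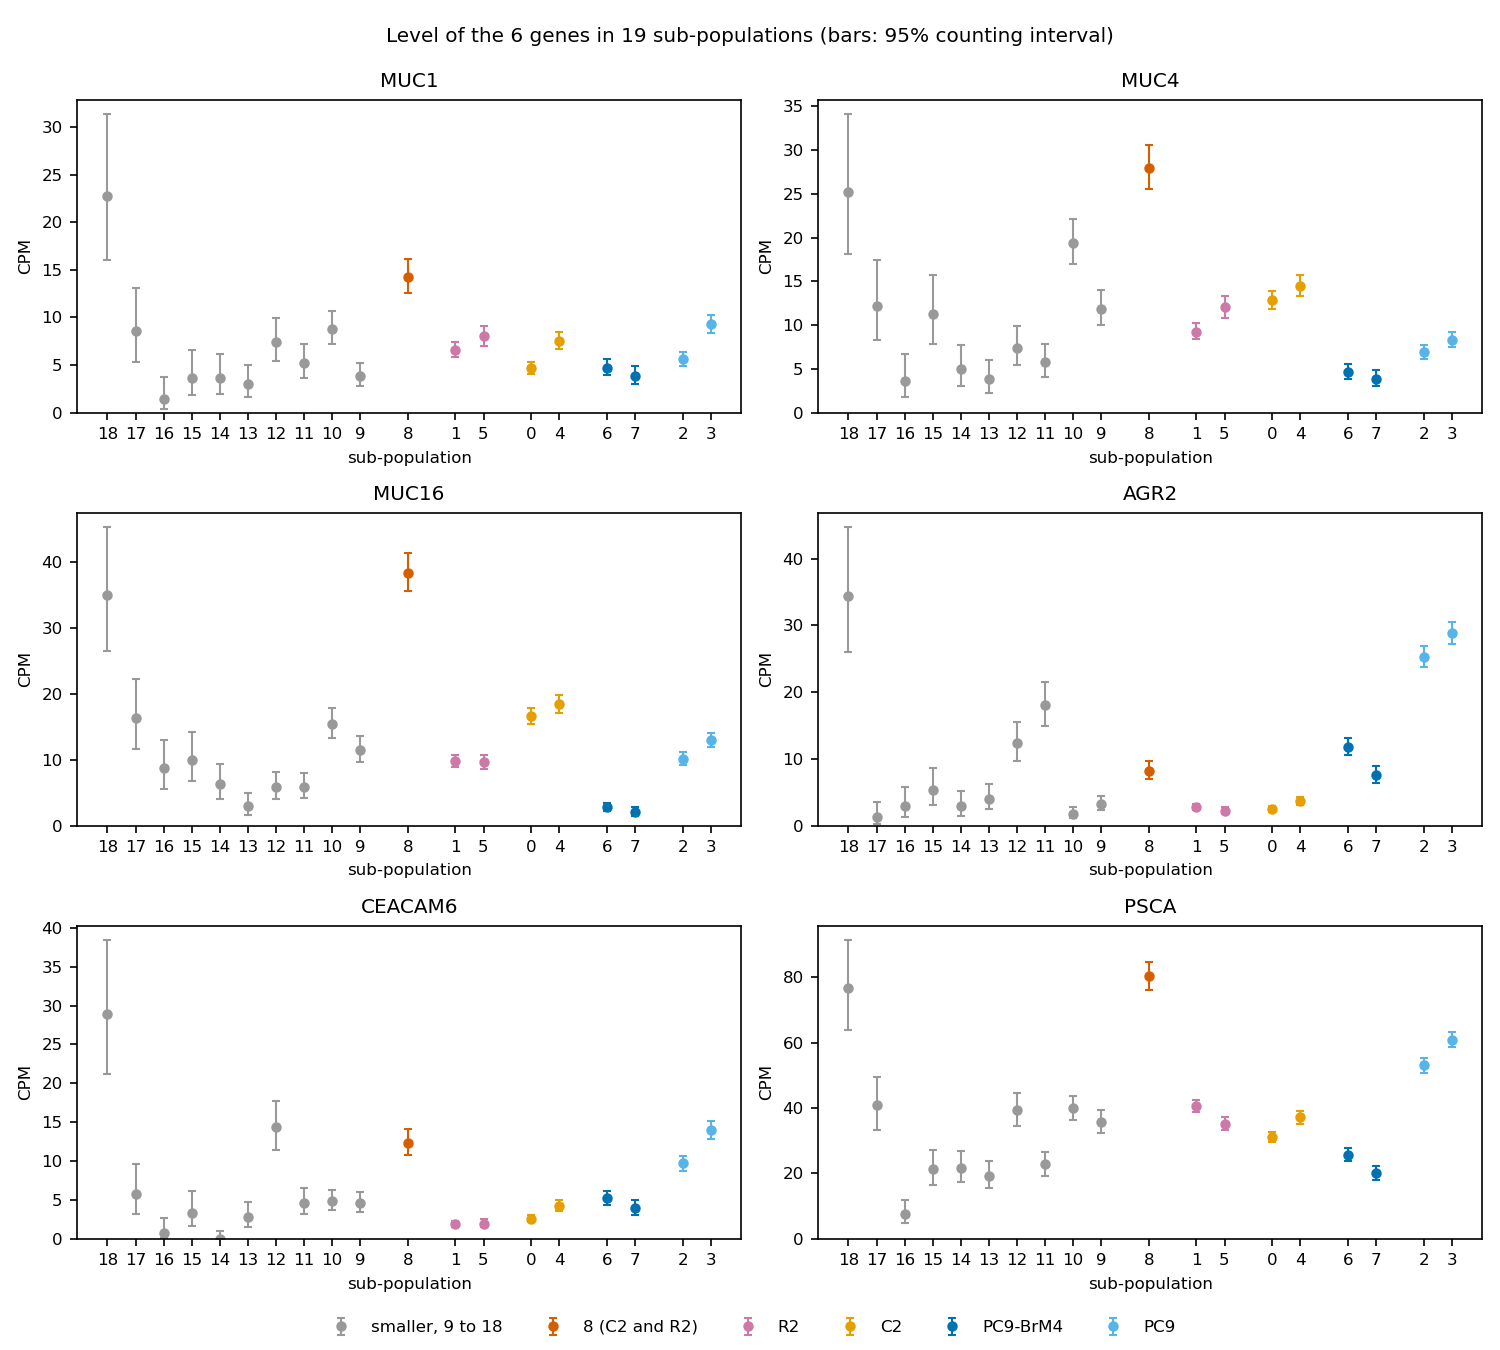
Level of each gene (CPM of mean corrected UMIs) in each of the 19 sub-populations, coloured by the line they were placed in; points are means over cells and bars are 95% Poisson intervals. MUC16, MUC4 and PSCA peak in sub-populations 8 and 18, whereas AGR2 is highest in 18 and in the PC9 sub-populations 2 and 3.

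In a mean over cells, fewer cells with a transcript and fewer transcripts per cell cannot be told apart. The second deposited table, a mean of e^count − 1 over cells, allowed both to be separated, because only 1 combination of cells with 1, 2, 3 or more raw UMIs gave the deposited value to its 15 digits for 107 of the 114 pairs of gene and sub-population. The other 7, 6 of PSCA and AGR2 in sub-population 3, were not solved. In 0 to 8 the summed raw UMIs were between 0.880 and 1.12 times the corrected ones. Shares of cells are given with exact binomial 95% intervals, which cover counting error only. The cultures held no cell type known to lack these genes, so the share that free RNA alone would give is unknown.

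In sub-population 8, 463 of 1207 cells (38.4%, 35.6 to 41.2) held a MUC16 UMI, and 149 of them held 2 or more, with a highest count of 7 in 1 cell. In C2 and R2, between 12.8% and 23.5% of cells held a MUC16 UMI, in PC9-BrM4 4.12% and 2.51%, and in PC9 12.8% and 18.4%. The higher level in 8 was thus spread over many cells and did not rest on a few. The variance of MUC16 counts over their mean, which is 1 for purely random capture, was 1.36 in 8 and between 1.02 and 1.30 in 0 to 7. MUC4 UMIs were found in 380 cells of 8 (31.5%, 28.9 to 34.2), against between 12.2% and 18.6% of the cells of R2 and C2, and MUC1 UMIs in 215 cells of 8 (17.8%, 15.7 to 20.1), against between 6.08% and 11.1%. For MUC4 the variance over the mean stayed between 0.946 and 1.13 in 0 to 8.

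CEACAM6 was the most unevenly spread of the 5 genes solved in 8. There, 164 cells (13.6%, 11.7 to 15.7) held a CEACAM6 UMI and 1 cell held 10 of the 216, with a variance over the mean of 1.80. In sub-population 3 of PC9, 484 of 2664 cells (18.2%) held one, with 1.51. AGR2 was found in 689 of the 2686 cells of sub-population 2 (25.7%, 24.01 to 27.3), with up to 8 UMIs in a cell and a variance over the mean of 1.63. In R2 and C2 it was found in between 3.13% and 4.65% of cells, in 8 in 10.1%, and in PC9-BrM4 in 14.6% and 9.16%. More cells of sub-population 2 than of any sub-population of the derived lines among 0 to 8 thus held the transcript. PSCA, where solved, was found in 40.9% of the cells of sub-population 5 of R2, in 28.4% of those of 0 of C2, and in 30.9% and 22.7% of those of 6 and 7 of PC9-BrM4.

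Sub-population 8 was first compared with the other sub-populations of C2 and R2, to see which of the 6 genes mark this state. All 6 were higher in 8 than in each of 0, 1, 4 and 5. Columns without overlap were frequent here, at 40% of the 7159 genes measured, so that the size is what distinguishes them. Differences are those of the mean of log2(CPM + 5), a scale that understates changes of low genes, and a gene was called where its mean over the compared sub-populations was at least 10 CPM, the difference was at least 1 in size and the columns did not overlap. MUC16 averaged 38.4 CPM in 8 against 13.6 CPM in C2 and R2, a difference of 1.26, and PSCA 80.3 against 35.9 CPM, a difference of 1.06. Both were called higher, beside 0.629% of all genes called higher and 0.615% called lower. The study itself chose both genes on these samples, so that the calls are not independent evidence.

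MUC4 averaged 28.0 CPM in 8 and 12.1 CPM in C2 and R2 (difference 0.95), just under the size of a call, and reached 1.02 when sub-population 4 was left out. CEACAM6 averaged 12.3 CPM in 8 and 2.63 CPM in C2 and R2 (1.19), a ratio of 4.68, but its mean was under 10 CPM and it was not counted as measured. AGR2, at 8.19 against 2.77 CPM (0.77), and MUC1, at 14.3 against 6.70 CPM (0.73), were also under that mean. The median difference of the 6 genes, which were chosen with earlier results of these data known, was 1.01, against −0.06 over all measured genes. Both calls passed the mean of 10 CPM in C2 and R2 alone, held with any 1 of these sub-populations left out (PSCA lowest, at 1.005 without 0), and were lost with a pseudocount of 20 CPM in place of 5.

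Genes of the same cell biology did not move as 1 block in 8. Of the airway secretory and goblet cell genes, 8 of the 28 listed were measured and 4 were called higher, with a median difference of 0.96. LCN2, which encodes an iron-siderophore binding lipocalin, was at 960 CPM in 8 against 515 CPM in R2 and 438 CPM in C2 (1.01). The protease inhibitors SLPI (1.14) and PI3 (3.02) and the calcium-binding protein S100P (1.35) were the other 3. By contrast, none of 15 measured enzymes of mucin O-glycosylation was called, with a median of 0.12 and GALNT12 (0.46) and GALNT6 (0.35) among the largest. The list drawn up around AGR2 had 9 measured genes, of which the oxidase ERO1A and the caspase CASP4 are no protein disulfide isomerases, and none of the 9 was called (median −0.02, CASP4 the largest at 0.76). None of 7 Ly6 relatives of PSCA (−0.04, LY6D 0.62) or 3 other mucins (−0.03) was called. None of 12 secretory and luminal transcription factors (0.15, HES1 0.75, XBP1 0.53) and none of 15 partners and sheddases of mucins (0.15) was called. Among the epithelial markers 1 of 11 was called, the GPI-anchored sialoglycoprotein CD24 (1.03). Of 10 genes of G2 and mitosis, 7 were called lower in 8, with a median of −1.34, and the part of the cell cycle in the mucin differences was not tested.

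**Figure D2:**
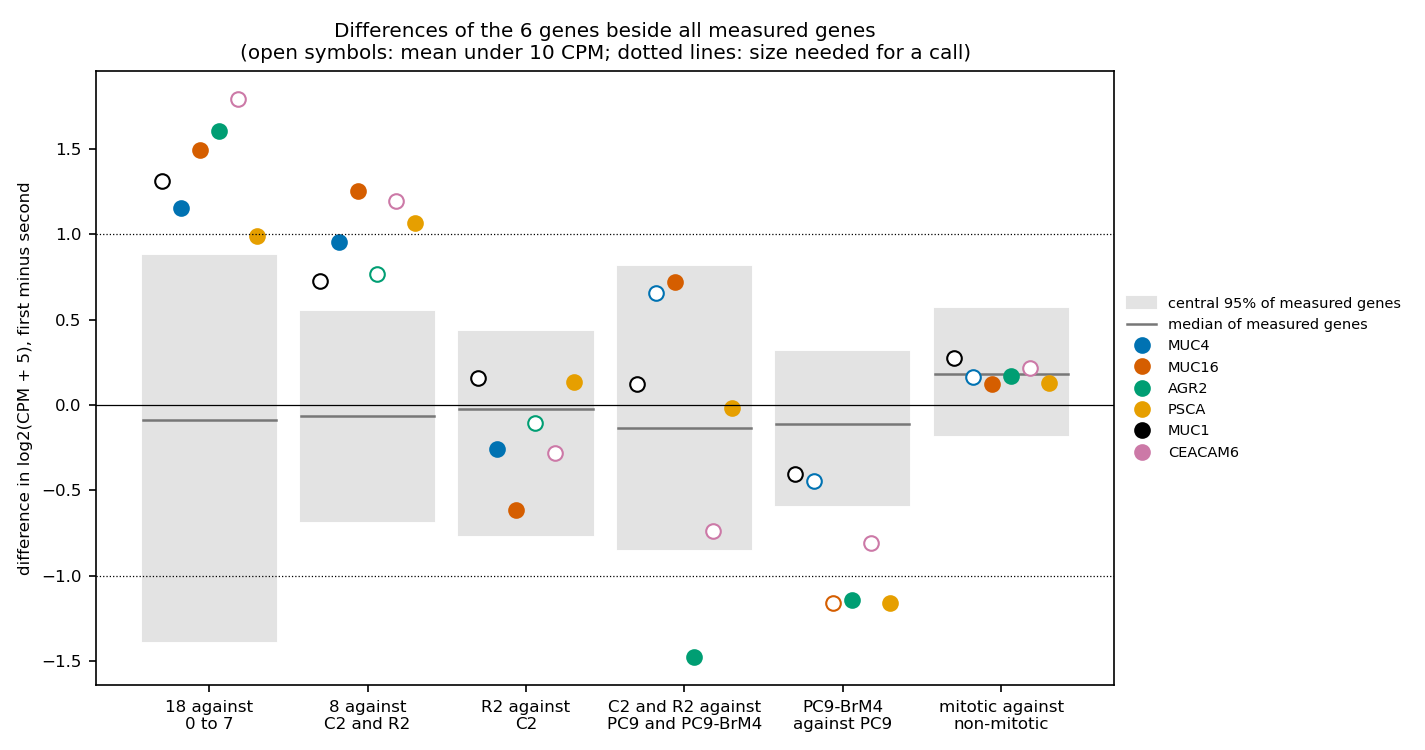
Difference of log2(CPM + 5), first group minus second, for the 6 genes in 6 comparisons; grey boxes hold the central 95% of all measured genes, grey lines are their medians, open symbols are genes with a mean under 10 CPM, and dotted lines mark the size of a call. All 6 genes lie above the grey box in the comparisons of sub-populations 18 and 8, and AGR2, PSCA, MUC16 and CEACAM6 lie below it in PC9-BrM4 against PC9.

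C2 and R2 were next compared with PC9 and PC9-BrM4. This sets the lines from the last rounds of selection against the parental line and the line first selected from it as 1 group. AGR2 averaged 2.77 CPM in C2 and R2 against 18.4 CPM in PC9 and PC9-BrM4, a ratio of 6.64 in favour of PC9 and PC9-BrM4 and a difference of −1.48. It was the 1 member called, beside 1.03% of 7397 genes called lower and 1.42% called higher. It passed the mean of 10 CPM only through PC9 and PC9-BrM4, and without sub-population 2 or 3 the mean fell below 10 CPM, with differences of −1.31 and −1.26. CEACAM6 averaged 2.63 against 8.19 CPM (−0.74), with 4 of C2 above 7 of PC9-BrM4 and a mean under 10 CPM.

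The mucins went the other way or were level. MUC4 averaged 12.1 CPM in C2 and R2 and 5.93 CPM in PC9 and PC9-BrM4 (0.66), without overlap of the columns, beside 30% of all genes without overlap, and with a mean under 10 CPM. MUC16 averaged 13.6 against 6.98 CPM (0.72), but its R2 values of 9.76 and 9.64 CPM were below both PC9 values. MUC1 at 6.70 against 5.87 CPM (0.12) and PSCA at 35.9 against 39.9 CPM (−0.02) overlapped. For PSCA, C2 and R2 lay above both PC9-BrM4 sub-populations and below both PC9 sub-populations, and MUC16 averaged 2.40 CPM in PC9-BrM4 alone. The median over the 6 was 0.05 and that of all measured genes −0.14.

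The lists around these genes also divided. Of 8 measured airway secretory genes, LCN2 (2.12), PI3 (2.13), WFDC2 (1.24) and SLPI (1.04) were called higher in C2 and R2, with a median of 0.82. MSLN, the binding partner of MUC16, averaged 25.5 CPM in R2 and 18.03 CPM in C2 against 2.89 CPM in PC9-BrM4 and 6.02 CPM in PC9 (1.51), and was 1 of 3 called among 15 partners and sheddases, with the galectin LGALS1 (1.48) and the ezrin relative MSN (1.45). MSLN passed the mean of 10 CPM only through C2 and R2. FOXA1, a pioneer factor of luminal and airway epithelium, was at 7.20 and 8.87 CPM in R2 and C2 against 22.9 and 29.9 CPM in PC9-BrM4 and PC9 (−1.26), and was the 1 of 14 transcription factors called, having passed the mean of 10 CPM only through PC9 and PC9-BrM4. None of the 9 genes of the AGR2 list was called (median −0.22), nor any of 15 O-glycosylation enzymes (−0.03, GALNT6 −0.84). Of 7 Ly6 relatives CD59, an inhibitor of complement, was called higher (1.01), and of 3 other mucins MCAM (1.19), an adhesion molecule listed there for its older mucin name.

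R2 was compared with C2 to ask what differed between cells selected in the presence of osimertinib and under vehicle. By the methods of the study, mice on osimertinib were collected much later after the start of treatment than mice on vehicle. Drug and time in the mouse therefore cannot be told apart here. No member was called, beside 0.35% of 7133 genes called lower and 0% called higher. MUC16 had the largest difference, with 9.70 CPM in R2 against 17.5 CPM in C2 (−0.61), and both R2 values were below both C2 values. MUC4 averaged 10.6 CPM in R2 and 13.7 CPM in C2 (−0.26) and CEACAM6 1.88 and 3.39 CPM (−0.28), also without overlap. Such separation is common in this comparison, at 52.9% of all genes. PSCA at 37.8 against 34.0 CPM (0.14), MUC1 at 7.31 against 6.10 CPM (0.16) and AGR2 at 2.47 against 3.07 CPM (−0.11) overlapped.

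In this comparison differences vary with transcript length over all genes, and both long mucins were lower in R2. The 345 measured genes with canonical transcripts of 9.59 to 43.8 kb, which include MUC4 and MUC16, had a median difference of −0.43, and 85 of them were at or below that of MUC16. MUC4 was less low than this median by 0.17. For PSCA, whose transcript is short, the median of genes of like length was 0.25. The part of transcript length in these differences was not tested further. No gene of the lists of relatives, partners, enzymes, factors and epithelial or secretory genes was called between R2 and C2.

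The sub-populations placed in PC9-BrM4 were compared with those placed in PC9, across the first selection for brain metastasis. All 6 genes were lower in both PC9-BrM4 sub-populations than in both PC9 sub-populations, beside 41.8% of all genes without overlap. For MUC1, the intervals of 6 (4.73 CPM, 3.96 to 5.62) and 2 (5.60 CPM, 4.88 to 6.38) overlapped, so that this step was within counting error. PSCA averaged 22.8 CPM in PC9-BrM4 against 56.9 CPM in PC9 (−1.16), and AGR2 9.68 against 27.1 CPM (−1.14). Both were called lower, beside 0.383% of 7568 genes called lower and 0.0925% called higher. AGR2 reached the mean of 10 CPM only through PC9, and its difference was −0.94 without sub-population 7, which ended its call.

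MUC16 was lower by as much, with 2.40 CPM in PC9-BrM4 and 11.6 CPM in PC9 (−1.16), a ratio of 4.81 in favour of PC9, but with a mean under 10 CPM. CEACAM6 at 4.55 against 11.8 CPM (−0.81), MUC4 at 4.26 against 7.61 CPM (−0.44) and MUC1 at 4.31 against 7.43 CPM (−0.40) were also under that mean. The median of the 6 was −0.97, and that of all measured genes −0.11. LCN2 (−1.09), S100P (−1.30) and PI3 (−1.07) were called lower among 8 airway secretory genes, with a median of −0.73, and MCAM (1.36) was called higher. PI3 passed the mean of 10 CPM only through PC9, and MCAM only through PC9-BrM4. ELF3, an epithelial transcription factor, was at 57.8 CPM in PC9-BrM4 and 107 CPM in PC9 (−0.85) without a call, and none of 14 such factors, 15 O-glycosylation enzymes or 9 genes of the AGR2 list was called.

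The comparisons of 8 with C2 and R2, and of C2 and R2 with PC9 and PC9-BrM4, share the columns of C2 and R2. Side by side, MUC16 had 1.26 and 0.72, MUC4 0.95 and 0.66, PSCA 1.06 and −0.02, MUC1 0.73 and 0.12, CEACAM6 1.19 and −0.74, and AGR2 0.77 and −1.48. PC9 and PC9-BrM4 took part in the second of these and in their own comparison.

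Among the smaller sub-populations, 18 stood out for all 6 genes, which were chosen with earlier results of these data known. Of its 111 cells, 66 (59.5%, 49.7 to 68.7) held a PSCA UMI, 45 (40.5%, 31.3 to 50.3) a MUC16 UMI, 36 (32.4%, 23.9 to 42.0) a MUC4 UMI, 35 (31.5%, 23.0 to 41.0) an AGR2 UMI, 31 (27.9%, 19.8 to 37.2) a MUC1 UMI and 26 (23.4%, 15.9 to 32.4) a CEACAM6 UMI. AGR2 was at 34.4 CPM (26.0 to 44.7) in 18 against a mean of 10.6 CPM in 0 to 7 (1.61), MUC16 at 35.0 against 10.3 CPM (1.497) and MUC4 at 25.2 against 9.04 CPM (1.15). These 3 were called higher, beside 1.55% of 7432 genes called higher, 5.37% called lower and 44.4% without overlap. MUC4 passed the mean of 10 CPM only through 18. CEACAM6 at 28.9 against 5.41 CPM (1.79) and MUC1 at 22.7 against 6.29 CPM (1.31) did not pass it, and PSCA at 76.8 against 37.9 CPM was at 0.99.

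The counts per cell show how far single cells carried these means. Of the 58 CEACAM6 UMIs in 18, 23 were in 1 cell and 6 in another, and 20 cells held 1 each. Without the first cell the raw level fell to 20.9 CPM, against 34.3 CPM with it. It remained above the highest value of 0 to 7, that of sub-population 3, at 13.98 CPM corrected and 15.2 CPM raw. For AGR2, 1 cell held 10 of 57 UMIs. Without it the raw level was 28.1 CPM, below the corrected 28.9 CPM of sub-population 3, so that the call ended. The raw AGR2 counts of sub-population 3 were not solved, and no cell was left out there. For PSCA, 1 cell held 17 of 140 UMIs. MUC16, MUC4 and MUC1 had at most 4 UMIs in a cell of 18, and the calls of MUC16 and MUC4 held without the cell with the most. Whether the cells with many UMIs were the same for different genes cannot be read from means.

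**Figure D3:**
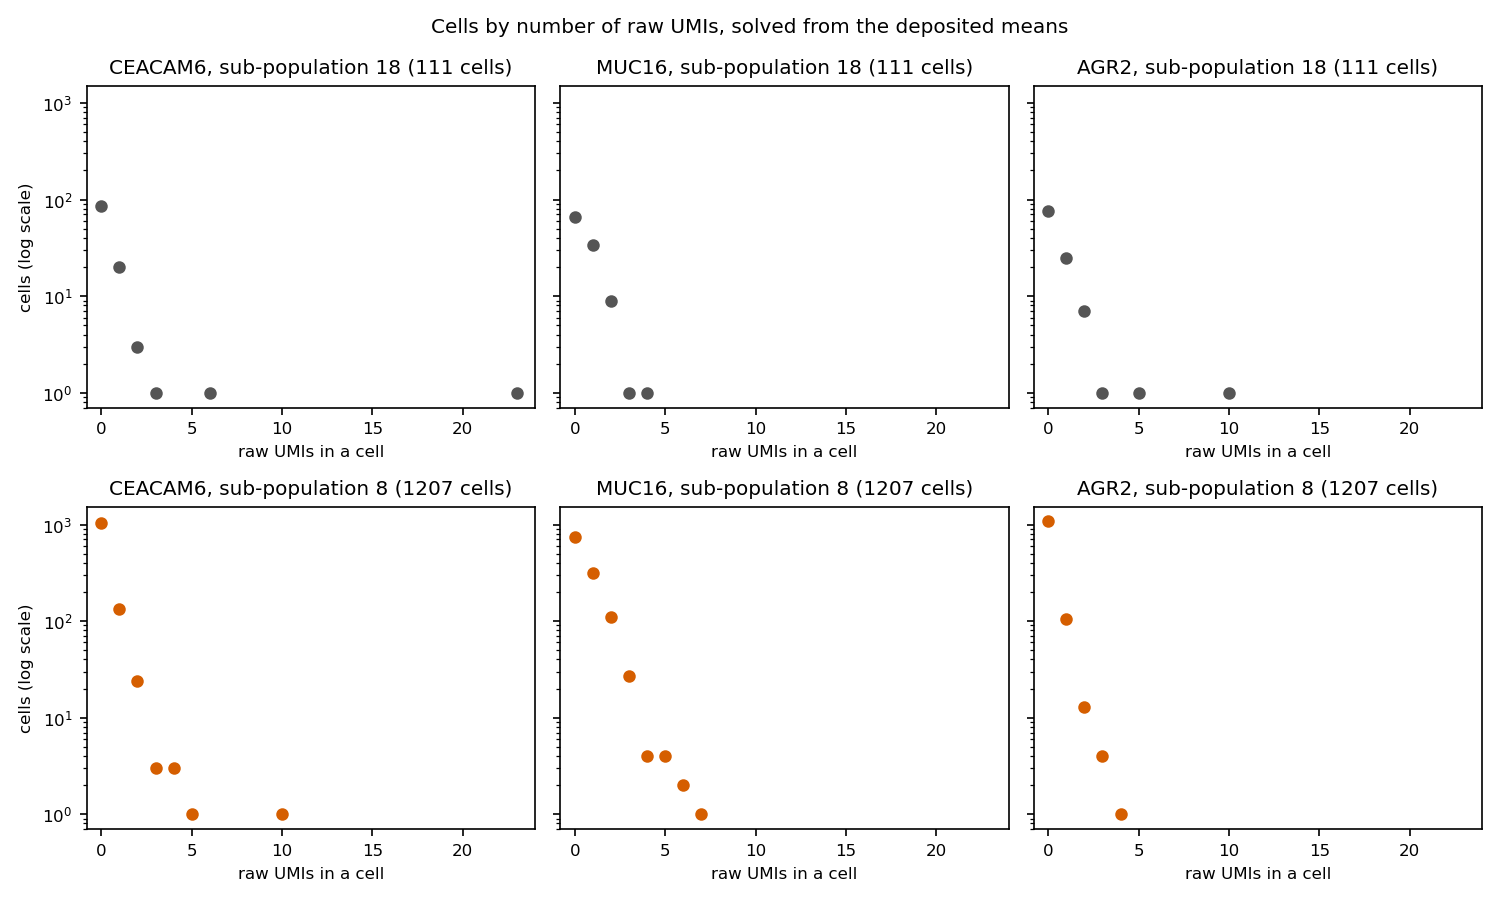
Number of cells (log scale) by the raw UMIs of CEACAM6, MUC16 and AGR2 that they held in sub-populations 18 and 8, solved from the deposited means. In sub-population 18 a single cell holds 23 CEACAM6 UMIs and a single cell holds 10 AGR2 UMIs, whereas MUC16 counts end at 4 in 18 and at 7 in 8.

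S100P (1.89), the secretory lectin ZG16B (1.14) and LGALS3 (1.41), a galectin that binds mucin glycans, were also called higher in 18, while LCN2 (0.90) and SLPI (0.71) were not and PI3 was at −0.62. No O-glycosylation enzyme of 15 was called (median 0.15), and no Ly6 relative of 7 (−0.27). All 10 genes of G2 and mitosis were called lower in 18, with a median of −2.47 and a summed level of 214 CPM, the lowest of the 19 sub-populations. The part of the cell cycle in the levels of the 6 genes was not tested.

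In the other 9 small sub-populations, 1 call was made. PSCA was at 7.63 CPM in 16 (−1.70), but 75.2% of all genes measured there were called lower, so that this is no result about PSCA. MUC4 came next after 8 and 18 in sub-population 10, at 19.4 CPM (16.98 to 22.1), above the whole range of 0 to 7 (difference 0.85, beside 41.1% of all genes without overlap there), where AGR2 was at 1.81 CPM. Sub-populations 11 and 12 came after PC9 for AGR2, at 18.01 CPM (14.96 to 21.5) and 12.3 CPM (9.64 to 15.5). CEACAM6 was at 14.3 CPM (11.4 to 17.7) in 12, within the interval of sub-population 3. There, 73 of the 389 cells of 12 (18.8%, 15.01 to 23.0) held a UMI, at a relative depth of 1.12, the highest of the 19. In 14, 0 of 301 cells held a CEACAM6 UMI, which allows a share of cells with a UMI of up to 0.997% (3 counts; exact interval up to 1.22%), at the lower depth of this sub-population.

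The sub-populations of each line with more TOP2A (2.36), CDK1 (2.26) and UBE2C (2.24) were set against the other of the same line. Of the 10 genes of G2 and mitosis 6 were called higher in them, whereas the mitotic cyclins CCNB1 (−0.19) and CCNB2 (−0.33) were not, so that the pairs differ in part of this list only. MUC4, MUC1 and CEACAM6 were higher in the sub-population with more TOP2A in all 4 lines, at 4 against 0, 5 against 1, 3 against 2 and 6 against 7, but 80.9% of all genes had the same sign in all 4 pairs. No member was called, beside 0.744% called higher and 0% called lower. The median difference of the 6 was 0.17, and that of all measured genes 0.18. MUC16, AGR2 and PSCA were higher in 3 of the 4 pairs and had differences of −0.01, −0.11 and −0.18 in R2.

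Across the 19 sub-populations, which share libraries, clustering and counting noise, MUC4 and MUC16 had the highest Pearson's r of the 15 pairs of members (r = 0.91 over 19 and 0.95 over 0 to 8, on log2(CPM + 5)). Over the 19, each was the gene most like the other among 7143 genes with a mean of at least 10 CPM. Over 0 to 8, MUC16 was in place 32 for MUC4, and MUC4 in place 13 for MUC16. MUC1 and PSCA had r = 0.88 and AGR2 and CEACAM6 r = 0.77 (0.84 over 0 to 8). MUC4 and AGR2 had r = 0.01 over 19 and −0.34 over 0 to 8.

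**Figure D4:**
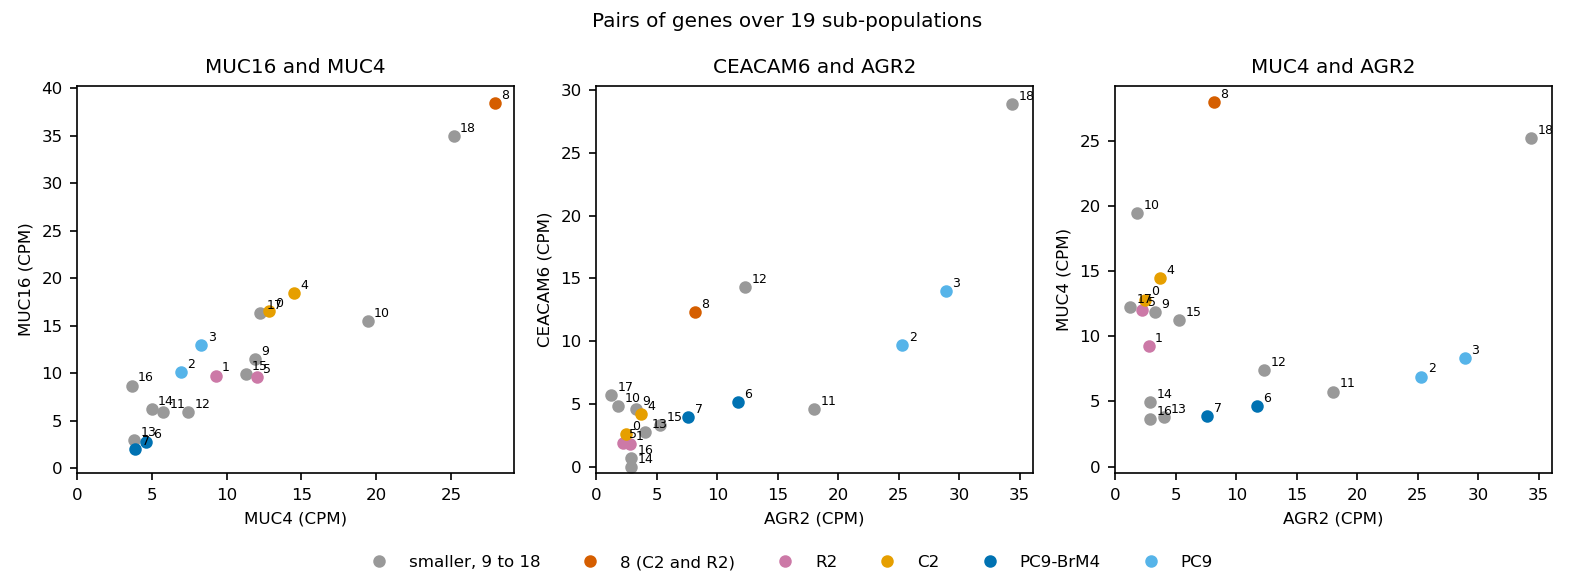
Levels (CPM) of pairs of genes in the 19 sub-populations, each point a sub-population labelled by its number and coloured by line. MUC16 and MUC4 lie near 1 line with 8 and 18 at its upper end, whereas AGR2 is high in 2 and 3 where MUC4 is at 6.91 and 8.31 CPM, and low in 10 where MUC4 is at 19.4 CPM.

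After MUC16, the genes most like MUC4 were SPATA20 (r = 0.91), TMEM154 (0.90), SMARCD3 (0.90) and YPEL3 (0.90). Next to MUC4, those most like MUC16 included the chloride channel family member CLIC3 (0.82), TMEM154 (0.77) and the microtubule-associated MAP1B (0.76). CLIC3 was at 59.1 CPM in 8, at 12.1 CPM in R2 and 16.1 CPM in C2, at 4.33 CPM in PC9-BrM4 and 7.75 CPM in PC9, and at 47.9 CPM in 18. The genes most like AGR2 were IDH1 (0.92), cytosolic isocitrate dehydrogenase, CYP1B1 (0.91), a cytochrome P450 of oestrogen and hydrocarbon oxidation, the transcription factor SOX4 (0.89), HCG18 (0.89) and ZBTB41 (0.86). SOX4 was at 5.83 CPM in R2 and 8.68 CPM in C2, against 36.4 CPM in PC9-BrM4 and 43.0 CPM in PC9.

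Those most like CEACAM6 were PARP14 (0.90), ALDH3B1 (0.88), the urea cycle enzyme ASS1 (0.87), SAMD12 (0.87) and PBX2 (0.87). ALDH3B1, an aldehyde dehydrogenase, also led for MUC1 (0.88), before PSCA (0.88), FAM210B (0.87), SHISA4 (0.84) and SPATA20 (0.84). PSCA was most like CYBRD1 (0.93), a duodenal ferric reductase, CAPS (0.93), TSTD1 (0.92), FYB1 (0.91) and UBE2L6 (0.91). Over 0 to 8 alone, at most 1 of the 5 leading genes of a member was again among the first 5, so that these lists describe the 19 values and little more.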

How the data were processed

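Single-cell libraries of 4 lines, 1 per line, were made by the authors with 10x 3′ chemistry. Per the labels and the methods of the study, Cell Ranger was run against hg38, and cells were normalised with sctransform and clustered in Seurat 3. The authors deposited 2 tables of other units than raw counts. The first holds mean corrected UMIs per cell, where each count is replaced by that predicted at a common depth, and the second the mean of e^count − 1 over cells, in which 140 values had overflowed. No column of these tables is a sample, and 0 columns of per-sample values were left out. Doublets and shared barcodes were not assessed, since the tables hold means over cells, so that a cell with many UMIs may be a doublet.

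Each column of the first table, times a whole number of cells, gave whole UMIs within 0.001, which gave the number of cells. Columns were rescaled to the same total (CPM). Genes were measured at a mean of at least 10 CPM, and called at a difference of at least 1 in mean log2(CPM + 5) without overlap of columns. No test across genes was made. Values of the second table were solved for whole numbers of cells with each UMI count by a complete search within 15 significant digits, for summed UMIs between 0.6 and 1.5 times those expected. On simulated data, 60 of 60 histograms were recovered. In a simulated comparison of C2 and R2 with PC9 and PC9-BrM4 over 19973 genes, 0 of 50 genes changed by 2-fold were called, 49 of 50 changed by 3-fold and 50 of 50 changed by 4-fold, and 0 of 7186 unchanged genes. With the pseudocount, a 2-fold change lies below the size of a call. The simulated columns of a side differed by counting noise only, so that calls due to spread between sub-populations or cultures were not assessed.

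The 6 members and the gene lists were chosen with earlier results of these data known. Named genes were the members, the 5 genes with the highest r to each (without ribosomal, mitochondrial and clone-named genes), and of each list the called genes or otherwise up to 4 with the largest differences. A gene that this rule names is not reported here. Alternatives were pseudocounts of 1 and 20 CPM, no filter or 50 CPM, a size of 0.5, values not rescaled, the second table, and leaving out 1 column. After the data were seen, solved raw UMIs and sub-population 18 without the cell with the most UMIs were added. Python 3.11.15, numpy 2.4.6, pandas 2.3.3, scipy 1.17.1 and numba 0.67.0 were used, with RefSeq and GENCODE 44 for sequences and positions.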

Additional observations from a re-analysis of the deposited data

How the results depend on the processing

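With a pseudocount of 20 CPM, 0 members were called in C2 and R2 against PC9 and PC9-BrM4, in PC9-BrM4 against PC9 and in sub-population 8 against C2 and R2, and 1 in sub-populations 9 to 18 against 0 to 7 (1, 2, 2 and 4 at 5 CPM). With a filter of 50 CPM these counts were 0, since nearly all members lie below it. Without a filter, 7 calls were made in 9 to 18. At a size of 0.5, 1 member (MUC16) was called in R2 against C2, where 5.86% of all measured genes had a lower difference, and 7 in 9 to 18. The shares of all genes called under these alternatives are not given here, so that the counts describe the rule and are no result about the members. The table of uncorrected values under a Poisson assumption gave 5 calls in 8 and 12 in 9 to 18. It rises with the spread between cells, and solved raw UMIs instead kept all 62 differences they could give within counting error of the corrected ones.

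In leave-one-out settings the counts ranged from 0 to 1 in C2 and R2 against PC9 and PC9-BrM4, from 1 to 2 in PC9-BrM4 against PC9, from 2 to 3 in 8, and from 4 to 7 in 9 to 18 (7 without sub-population 1), and stayed at 0 in R2 against C2 and in the mitotic pairs. Without the cell with the most UMIs in sub-population 18 the count in 9 to 18 was 3. No called difference reversed under any alternative. With pseudocounts of 1 and 20 CPM, 43 and 45 of 90 differences moved beyond counting error. No paired analysis was possible because each line had 1 library and no replicate number, and the pairs by line are pairs of sub-populations placed in the same line. In sub-population 18, with 111 cells, each member rests on 39 to 140 raw UMIs, and 1 cell can move its level.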
